A study of Homo sapiens with 12 samples.

Results

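SUM149PT cells that received an EZH2 inhibitor and an AKT inhibitor together were compared with cells that received only the solvent. SUM149PT is an established line from an inflammatory breast cancer. The comparison uses 6 of the 12 RNA sequencing libraries of the study, the 3 labelled with both drugs and the 3 labelled DMSO, and covers all genes with enough counts to test. The combination group was kept in 5 µM tazemetostat, the EZH2 inhibitor, from day -5 and through each passage. It then also received 5 µM ipatasertib, the AKT inhibitor, on day 0. The control group had DMSO over the same days. On day 0 both groups went into medium with 2% fetal bovine serum, and RNA was taken after 24 h, so the tazemetostat exposure was longer than the ipatasertib exposure. Groups with ipatasertib or tazemetostat alone, with 3 libraries each, are used only where stated. All groups are 1 cell line, and the labels do not say that replicates A, B and C were separate cultures. The p-values therefore cover only how far these samples spread, and that spread may be technical.

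AKT is a kinase downstream of PI3K and growth factor receptors. It phosphorylates FOXO transcription factors and keeps them out of the nucleus, and it promotes protein synthesis and growth through mTORC1. When AKT is inhibited, FOXO factors enter the nucleus and induce genes of fasting, growth arrest and receptor signalling. EZH2 is the catalytic subunit of Polycomb repressive complex 2 (PRC2), which methylates histone H3 at lysine 27 and holds many developmental genes silent.

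The DMSO libraries held 32470808 to 44924160 gene counts and the combination libraries 26024012 to 35417607. Levels below are CPM (a gene's share of a library's counts, on the usual scale per 1e6, after scaling with TMM factors) and are not divided by gene length. A level is therefore compared between samples and not between genes. Changes are log2 differences, combination minus DMSO, from an edgeR quasi-likelihood fit over all 12 libraries. They are given with a standard error (SE) computed back from the F-test. A gene is said to have risen or fallen when its p was under 0.05 after Benjamini-Hochberg adjustment across the tested genes. Reads assigned to no gene feature made up 19.1% to 20.6% of each DMSO library and 22.8% to 24.5% of each combination library. Combination B stood apart from combination A and C, with a chi-square per degree of freedom of 26.2 and 15.1, against 5.94 between A and C and 3.31 to 6.99 between DMSO libraries. The epithelial genes EPCAM and CDH1 were at 305, 326 and 337 CPM under DMSO and 299, 401 and 330.2 CPM with the combination, and at 326, 335 and 330.5 CPM under DMSO and 254, 252 and 258 CPM with the combination. EPCAM did not pass but was called higher without combination A (0.17, adjusted p = 0.043) and under total-count scaling (0.22, adjusted p = 0.017). No count of PGR, the progesterone receptor, was found under DMSO, which allows up to 0.0282 CPM over the 3 libraries for counting error alone. ESR1, the oestrogen receptor, was at 3.89 to 4.15 CPM.

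Most tested genes differed between the groups, many of them by little. The median absolute log2 change over all tested genes was 0.45. Of 23228 genes in the files, 14874 could be tested, and 10565 of these (71.0%) differed between the groups. Of all tested genes, 5435 (36.5%) rose and 5130 (34.5%) fell. Over all tested genes rises went further than falls, but more than 2-fold rises did not outnumber falls among the most abundant genes. More than 2-fold changes were called for 2055 rises (13.8%) and 760 falls (5.11%), more than 4-fold changes for 770 and 102, and more than 8-fold changes for 301 and 21. In the test against a 1.5-fold change, 2446 genes were higher and 1403 lower. The median change over all tested genes was 0.02. Scaling by total counts alone moved it to 0.16 and raised the share of calls that were rises from 51.4% to 62.6%, so small changes in either direction depend on the scaling. Without combination B, 5638 genes rose and 5007 fell. In bulk RNA, fewer cells of a kind and less RNA per cell cannot be told apart.

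**Figure D1:**
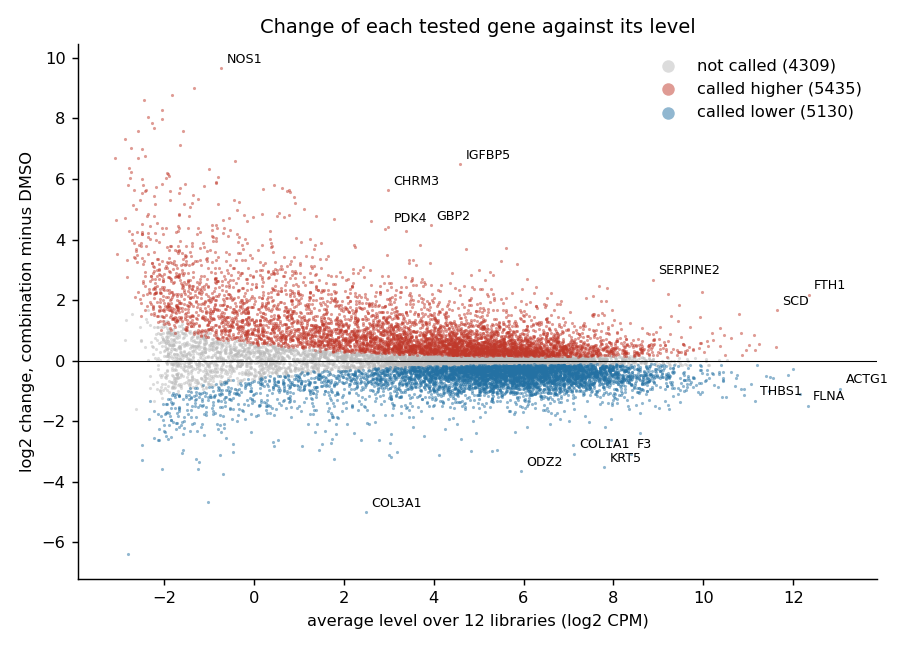
The log2 change between combination and DMSO is plotted for each of the 14874 tested genes against its average log2 CPM over the 12 libraries, with called genes in red (higher) or blue (lower) and others in grey. Rises reach further than falls at the left, where genes have few counts.

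The direction of change moved with the level of a gene. Tested genes were ordered by average level and divided into 5 bins of equal size. In the lowest bin, 45.9% rose and 13% fell, with a median change of 0.60. In the highest bin, 24.3% rose and 54.5% fell, with a median of -0.20. More than 2-fold rises and falls made up 2.79% and 4.81% of the highest bin, against 37.6% and 8.4% of the lowest. The bins between them had medians of 0.24, 0.00 and -0.11. Many low genes were close to absent under DMSO. Of 2264 tested genes under 1 CPM in DMSO, 1216 rose and 168 fell, while of 1732 under 1 CPM in the combination 564 rose and 299 fell. A gene that was silent under DMSO passed the low-count filter only if some treatment raised it, so counts of low genes that rose are descriptions of the genes that passed. Counts over genes with a mean of 1 CPM or more in the 2 groups are given below where low genes weigh on a list. Of 12980 such genes, 35.8% rose and 37.8% fell. Lists of abundant genes are to be read beside the highest bin, where falls were more frequent. Total-count scaling moved the median of every list up by 0.13 to 0.14. In 13 lists the median lay within 0.1 of 0, and leaving out 1 library changed its sign in 8 of them and moved it by at most 0.14, so no direction is read from those medians. Ranges in brackets after a list's median are the lowest and highest medians over the fits that each left out 1 DMSO or combination library.

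**Figure D2:**
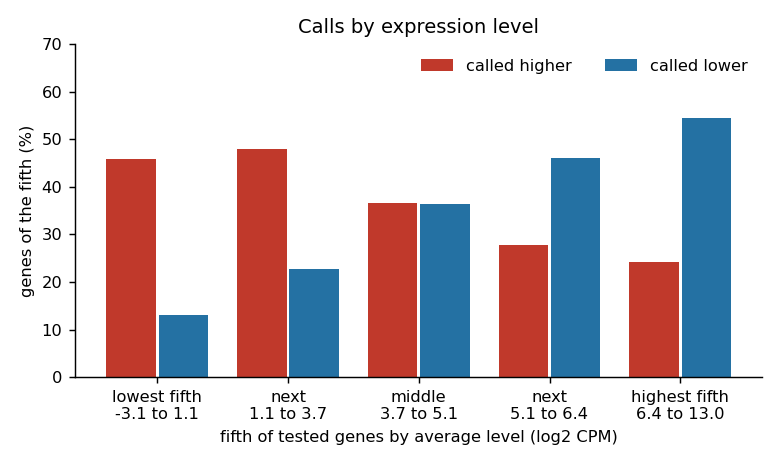
Bars show the percentage of genes called higher (red) and lower (blue) in each of 5 equal bins of the tested genes, ordered by average log2 CPM. Rises outnumber falls in the lowest bin (45.9% against 13%), and falls outnumber rises in the highest (24.3% against 54.5%).

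Among genes that reached at least 10 CPM, those that rose most included a growth factor binding protein, a muscarinic receptor and a cholesterol exporter. IGFBP5, which binds insulin-like growth factors outside the cell, went from 3.05, 3.49 and 3.69 CPM to 342, 271 and 299 CPM. CHRM3, the muscarinic acetylcholine receptor M3, went from 0.844, 1.35 and 1.24 CPM to 55.1, 58.8 and 53.7 CPM, and ABCG1, which exports cholesterol, from 0.914, 1.11 and 1.37 CPM to 27.6, 25.5 and 29.4 CPM. For each of these the lowest combination library was above the highest DMSO library, which the rule that chose them required. SERPING1, the C1 inhibitor of the complement and contact systems, rose from 0.328, 0.15 and 0.262 CPM to 12.1, 11.9 and 13.4 CPM. GDF15, a secreted stress cytokine of the TGF-beta family, went from 0.164, 0.271 and 0.196 CPM to 11.4, 9.6 and 11.7 CPM. RORB, an orphan nuclear receptor, went from 0.328, 0.271 and 0.229 CPM to 13.8, 14.7 and 14.2 CPM. The chemokine receptor CXCR4 changed by 5.59 (SE 0.24), the stress-responsive gene NDRG2 by 5.79 (SE 0.21), and the Pellino ubiquitin ligase PELI2 by 5.40 (SE 0.23). The lectin CLEC2B went from 0.258, 0.361 and 0.327 CPM to 9.35, 14.7 and 10.6 CPM. RRAGD, a Rag GTPase that carries amino acid signals to mTORC1, changed by 5.00 (SE 0.18), C13orf15, a cell cycle regulator also known as RGCC, by 4.78 (SE 0.19), and B3GAT1, which makes the HNK-1 carbohydrate, by 4.67 (SE 0.17). Without DMSO C, CXCR4 changed by 6.21, and without DMSO A, PELI2 changed by 6.01. Among these genes the largest adjusted p was 2.21e-13 (CLEC2B).

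Some genes that rose had counts at or near 0 under DMSO. NOS1, the neuronal nitric oxide synthase, had 1 count in the 3 DMSO libraries together and 300, 246 and 418 counts in the combination libraries. CLDN10, a tight junction claudin, went from 1 count to 60, 68 and 102 counts. FAM65B and RNF182 had 3 and 3 counts under DMSO and 58, 43 and 63 counts, and 50, 52 and 54 counts, with the combination. In all, 12 genes had at most 3 counts over the DMSO libraries and at least 1 CPM in each combination library, and 0 genes did the reverse. Of 19 tested genes with no count under DMSO, the highest with the combination were CYTL1, a secreted cytokine-like protein, at 41, 53 and 72 counts, the Notch ligand DLL1 at 41, 49 and 50 counts, and MYCN, the neural member of the MYC family, at 32, 30 and 68 counts. Against the level that 3 counts over the DMSO libraries would give, CYTL1 was at least 63.9-fold higher, DLL1 at least 55.1-fold and MYCN at least 48.7-fold.

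The largest falls, among genes of at least 10 CPM under DMSO, included the collagens COL3A1 and COL1A1 and the keratins KRT5, KRT14 and KRT6A. COL3A1, a fibrillar collagen, went from 28.8, 33.8 and 32.3 CPM to 0.931, 0.781 and 1.17 CPM, and ODZ2, the teneurin adhesion receptor also known as TENM2, from 194, 201 and 199 CPM to 14.1, 16.8 and 16.2 CPM. F3, the tissue factor that starts coagulation, fell from 967, 1016 and 1025 CPM to 114, 126 and 116 CPM. The rule that chose these genes required groups that did not overlap. KRT5 fell from 642, 646 and 609.8 CPM to 58.5, 50.3 and 55.1 CPM, COL1A1 from 446, 429 and 398 CPM to 58.4, 41.3 and 51.3 CPM, and HAS2, a hyaluronan synthase, from 106, 111 and 113 CPM to 12.6, 14.5 and 14.3 CPM. The transcription factor CREB3L1, which acts on collagen genes, changed by -3.20 (SE 0.11), the interleukin 7 receptor IL7R by -3.13 (SE 0.11), and the granin SCG2 by -3.03 (SE 0.10). The carboxypeptidase CPA4 changed by -2.99 (SE 0.08), the sodium-calcium exchanger SLC8A1 by -2.94 (SE 0.08), and LOC100507127, known only by its identifier, by -2.73 (SE 0.11). The largest adjusted p among these genes was 6.04e-14 (LOC100507127).

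**Figure D3:**
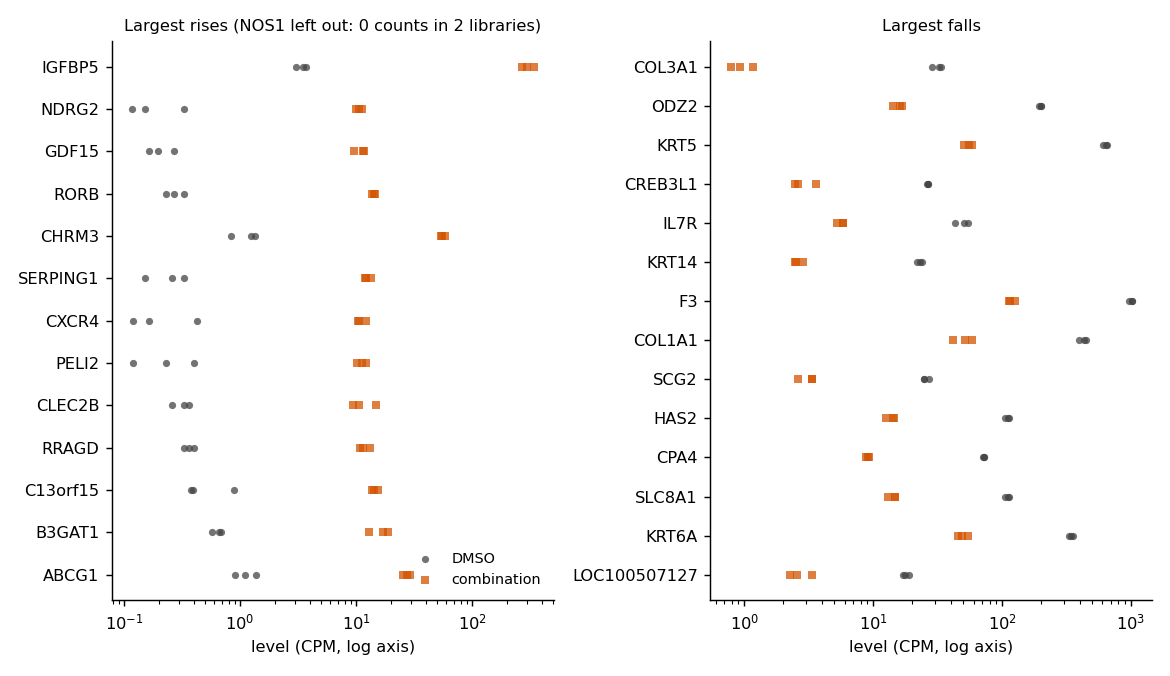
Each point is 1 library, with DMSO as grey circles and the combination as orange squares, on a log axis of CPM. Genes are those named in the text among the 15 largest rises, apart from NOS1, and the 15 largest falls. They have at least 10 CPM in the higher group, and groups that do not overlap were a condition of the choice. In COL3A1 the combination libraries lie between 0.781 and 1.17 CPM and the DMSO libraries between 28.8 and 33.8 CPM.

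Among abundant transcripts, the largest gain in CPM was in FTH1, the ferritin heavy chain that stores iron, at 2539, 2376 and 2429 CPM under DMSO and 10935, 11167 and 11096 CPM with the combination. SCD, the desaturase that makes oleate, was at 1649.6, 1943 and 2031 CPM under DMSO and 5966, 5926 and 5917 CPM with the combination, and RARRES1, a retinoid-induced membrane protein, at 409.9, 456 and 537 CPM under DMSO and 1951, 2634 and 2216 CPM with the combination. SERPINE2, a secreted thrombin inhibitor, rose by 2.67 (SE 0.09), and DMBT1, a secreted mucosal glycoprotein, by 1.45 (SE 0.06). TPT1, a translationally controlled growth protein, rose by 1.55 (SE 0.08), EEF1A1, a translation elongation factor, by 0.84 (SE 0.06), and the nuclear noncoding RNA MALAT1 by 0.91 (SE 0.13). The largest losses were in the cytoskeleton. ACTG1, cytoplasmic actin gamma, was at 12329, 11863 and 11664 CPM under DMSO and 6433, 6010.4 and 6296 CPM with the combination, and FLNA, the actin crosslinker filamin A, at 8969, 8959.6 and 8184 CPM under DMSO and 3518, 2626 and 3119.7 CPM with the combination. ACTB fell by 1.11 (SE 0.05), and TUBB, a beta tubulin, by 1.01 (SE 0.05). THBS1, the matrix protein thrombospondin 1, changed by -1.33 (SE 0.06), HSP90AA1, a chaperone, by -1.15 (SE 0.08), GREM1, a BMP antagonist, by -0.95 (SE 0.06), and the glycolytic enzyme GAPDH by -0.49 (SE 0.06). FTH1, TPT1, EEF1A1, ACTG1, ACTB, TUBB, HSP90AA1 and GAPDH have processed copies in the genome that can share reads, so their values are uncertain. Adjusted p reached at most 2.26e-06 (MALAT1).

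Genes known to be induced by FOXO factors rose in most cases. In a list of 29 such genes, 22 of 27 tested members rose and 3 fell, with a median log2 change of 1.32, beside 36.5% of all tested genes that rose and 34.5% that fell. Summed over the list, levels were 1137 to 1145 CPM under DMSO and 2399.5 to 2510.2 CPM with the combination. PDK4, the kinase that shuts pyruvate dehydrogenase during fasting, was at 1.9, 1.86 and 2.03 CPM under DMSO and 37.9, 43.6 and 41.7 CPM with the combination. KLHL24, a ubiquitin ligase adaptor, was at 13.1, 13.8 and 15.7 CPM under DMSO and 132, 147 and 137 CPM with the combination. FOXO4, itself a FOXO factor, was at 5.32, 4.54 and 4.58 CPM under DMSO and 33.6, 23.8 and 32.2 CPM with the combination, and INSR, the insulin receptor, at 3.14, 3.7 and 3.07 CPM under DMSO and 17.6, 17 and 18.9 CPM with the combination. In these 4 genes every combination library lay above every DMSO library, and the groups did not overlap in 71.9% of all tested genes. PIK3IP1, an inhibitor of PI3K, rose by 2.88 (SE 0.14), the transcriptional coregulator CITED2 by 2.35 (SE 0.06), TXNIP, which limits glucose uptake, by 1.49 (SE 0.05), and SESN3, a sestrin, by 2.71 (SE 0.41), or by 3.31 without DMSO C. CDKN1B, the CDK inhibitor p27, and FOXO3 rose by 0.30 and 0.30. GADD45A, a growth arrest and DNA damage gene, fell by 1.20 (SE 0.10), FBXO32 by 0.48 (SE 0.06) and KLF6 by 0.28 (SE 0.06). BNIP3 and SESN1 did not pass, at 0.02 (SE 0.07) and -0.11 (SE 0.12).

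The promoters of PDK4 and IGFBP5, the FOXO-induced gene and the IGF binding protein gene that changed most, are shown because both rose far above the DMSO range. Each runs from 250 bases before to 50 after the RefSeq start, in build GRCh38.p14 and on the minus strand, for PDK4 at chr7:95596467-95596766 and for IGFBP5 at chr2:216695500-216695799. Capitals mark matches to any of the motifs searched on both strands, which were the FOXO core TGTTTAC, the AP-1 element TGANTCA, the E2F-like element TTTNNCGC, the GAS element TTCNNNGAA, the interferon element core GAAANNGAA, the TATA box TATAAA, the CCAAT box with the letters of its name, and the sterol-like element TCACNNCA. PDK4 holds 1 match, a CCAAT box on the opposite strand (ATTGG) that begins 117 bases before the start. IGFBP5 holds 0 matches.
PDK4: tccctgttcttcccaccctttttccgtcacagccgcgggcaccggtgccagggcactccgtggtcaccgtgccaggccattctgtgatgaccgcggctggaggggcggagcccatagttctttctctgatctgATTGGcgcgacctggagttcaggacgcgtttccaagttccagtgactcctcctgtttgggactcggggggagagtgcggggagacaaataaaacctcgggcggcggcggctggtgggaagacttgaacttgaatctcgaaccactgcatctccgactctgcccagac
IGFBP5: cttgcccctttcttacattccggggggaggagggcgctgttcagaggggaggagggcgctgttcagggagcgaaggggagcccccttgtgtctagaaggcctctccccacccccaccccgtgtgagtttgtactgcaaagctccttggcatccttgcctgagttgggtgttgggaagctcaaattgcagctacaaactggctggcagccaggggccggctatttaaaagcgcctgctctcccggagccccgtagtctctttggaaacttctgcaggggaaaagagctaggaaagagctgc
CCAAT occurs in 35.6% of the 11228 promoters of tested genes found in the RefSeq table. The FOXO core occurs in 3.81% of 1442 promoters of genes more than 2-fold higher, 1.68% of 477 more than 2-fold lower and 2.43% of all. A match describes letters in the window and not a bound site.

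Nodes of the PI3K-AKT pathway went in both directions. In that list 13 of 30 tested members rose and 11 fell, with a median log2 change of -0.03, beside 36.5% and 34.5% of all tested genes. The median turned to 0.11 under total-count scaling, and to 0.05 without combination B. IRS1, the adaptor of the insulin and IGF receptors, fell from 167, 160.4 and 156 CPM to 71.7, 51.4 and 66.1 CPM. AKT1 and AKT2, the main targets of ipatasertib, changed by -0.40 (SE 0.07) and -0.32 (SE 0.07). RICTOR, which defines mTORC2, rose by 0.58 and RPTOR, which defines mTORC1, fell by 0.55. DEPTOR, an mTOR inhibitor, rose by 1.29 (SE 0.31) from a mean of 0.359 CPM.

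In the IGF system, 6 of 12 tested members rose and 3 fell, beside 36.5% and 34.5% of all tested genes. The median log2 change was 0.57, or 0.15 without the low-count filter. The same shares apply to the other lists of this paragraph. The binding proteins IGFBP2 and IGFBP7 rose by 2.59 (SE 0.10) and 1.95 (SE 0.14) beside IGFBP5, while IGFBP4 went from 257, 273 and 268 CPM to 203, 167 and 189 CPM. PAPPA, the protease that cleaves IGFBP4, fell from 331, 341 and 338 CPM to 125, 119 and 127 CPM. IGF2BP3, an RNA-binding protein of fetal tissues, rose by 3.02 (SE 0.14). Among receptor tyrosine kinases, 13 of 26 tested members rose and 10 fell, with a median log2 change of 0.25 (from 0.16 without combination A to 0.35 without combination B), and 7 of them were under 1 CPM in DMSO. Of the 19 with a mean of 1 CPM or more, 9 rose and 8 fell. FGFR2, a fibroblast growth factor receptor, rose by 1.48 (SE 0.10) and NTRK2, a neurotrophin receptor, by 2.58 (SE 0.19). AXL, a receptor linked to invasive cells, fell from 323, 324 and 314 CPM to 197, 170.0 and 192 CPM. Among EGF family ligands, 4 of 10 tested members rose and 4 fell, with a median log2 change of 0.36 (from 0.17 without combination B to 0.48 without combination A). NRG1, neuregulin 1, fell from 6.99, 7.43 and 6.51 CPM to 1.61, 1.79 and 1.47 CPM, and BTC, betacellulin, rose by 1.06 (SE 0.10). TGFA, HBEGF and NRG2 rose by 0.61, 0.71 and 1.29, AREG, EREG and EPGN fell by 0.71, 0.35 and 0.73, and EGF and NRG4 did not pass, at 0.48 and 0.25. NRG2 lost its call without DMSO A, DMSO C or combination A and with DESeq2, with adjusted p from 0.0513 (DESeq2) to 0.139 (without combination A). Over the 7 ligands with a mean of 1 CPM or more the median was -0.35.

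ERK feedback and immediate early genes mostly rose, where 36.5% of all tested genes rose and 34.5% fell. In this list 19 of 28 tested members rose and 5 fell, with a median log2 change of 0.55. DUSP6, the cytoplasmic phosphatase of ERK, was at 14.6, 17.4 and 16.4 CPM under DMSO and 50.9, 52.9 and 50.8 CPM with the combination, and SPRY4, a Sprouty inhibitor of the pathway, at 22.9, 22.6 and 20.4 CPM under DMSO and 62.1, 57.6 and 62.3 CPM with the combination. The groups did not overlap for either gene, as for 71.9% of all tested genes. SPRY1 rose by 3.23 (SE 0.21) and the early transcription factors EGR2 and EGR3 by 3.06 (SE 0.23) and 2.18 (SE 0.19). In the other direction, FOSL1, an AP-1 subunit and ERK target, fell from 192, 182 and 177 CPM to 95.4, 75.8 and 91.6 CPM. FOSL2 changed by -0.86, the phosphatase DUSP7 by -0.96 and the chemokine IL8 by -0.73. JUN and JUNB did not pass, at -0.08 (SE 0.07) and 0.13 (SE 0.09), but JUNB was called higher without combination B (0.27, adjusted p = 0.000638) and under total-count scaling (0.26, adjusted p = 0.0111). For the called genes of this and the preceding 2 paragraphs the largest adjusted p was 0.028 (NRG2).

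EZH2, the target of tazemetostat, had lower mRNA with the combination, at 62, 60.8 and 69 CPM under DMSO and 36.6, 42.9 and 36 CPM with the combination. A change in its mRNA does not measure inhibition of the enzyme. EZH1, the related methyltransferase, was at 16.1, 16.3 and 15.4 CPM under DMSO and 22.5, 22.1 and 23.5 CPM with the combination. Among PRC2 subunits 1 of 13 tested members rose and 6 fell, beside 36.5% and 34.5% of all tested genes. The median log2 change of these subunits was -0.11 (from -0.14 without combination A to -0.07 without combination C). The accessory subunit PHF19 changed by -0.67 and the core subunits EED and SUZ12 by -0.45 and -0.37. The list median was 0.03 under total-count scaling. Among PRC1 subunits 11 of 20 tested members rose and 2 fell, with a median log2 change of 0.22. CBX7, the reader of the histone mark that PRC2 makes, was at 8.35, 9.17 and 7.32 CPM under DMSO and 36.5, 27 and 35.8 CPM with the combination and changed most. PCGF5, CBX2 and the ligase RNF2 rose by 0.84, 0.83 and 0.75, while CBX6 fell by 0.45.

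Developmental transcription factors rose more often than they fell, many from levels near 0. Beside them, 36.5% of all tested genes rose and 34.5% fell, as did 45.9% and 13% of the lowest level bin. Among tested genes with a mean of 1 CPM or more, 35.8% rose and 37.8% fell. Of 61 homeobox, PAX and T-box genes, 48 passed the filter. Among them 29 of 48 tested members rose and 7 fell, with a median log2 change of 0.70, and 4 fell under total-count scaling. Over the 40 with a mean of 1 CPM or more, 24 rose, 7 fell and the median was 0.65. LHX2, a LIM homeobox factor, was at 0.961, 0.812 and 0.883 CPM under DMSO and 5.84, 7.78 and 6.02 CPM with the combination. MSX2 and LMX1B rose by 5.22 and 4.71, from 4 and 13 counts in the 3 DMSO libraries, and LMX1B by 4.13 without DMSO A and 5.81 without DMSO B. In the other direction, PITX1 went from 86.7, 84.9 and 77.9 CPM to 49.7, 44.8 and 47.8 CPM and SIX2 from 14.6, 14.5 and 15.1 CPM to 9.38, 7.18 and 6.67 CPM. Of 44 forkhead, SOX and KLF genes, 35 passed, and of these 23 rose and 7 fell. The median was 0.51, and 0.37 over the 31 with a mean of 1 CPM or more. FOXP2 went from 6 counts in all under DMSO to 67, 105 and 148 counts, and FOXA2, a factor of endoderm, from 0 to 21, 29 and 31 counts. SOX6 rose by 2.57 (SE 0.19) and FOXL1 by 2.56 (SE 0.13). FOXM1, the activator of mitotic genes, fell from 361, 353 and 349 CPM to 235, 196 and 222 CPM.

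Of 39 HOX genes, which set position along the body axis, 23 passed the filter. Among these 11 of 23 tested members rose and 5 fell, with a median log2 change of 0.41 (from 0.24 without combination A to 0.44 without DMSO A). Beside them, 36.5% of all tested genes rose and 34.5% fell, as did 45.9% and 13% of the lowest level bin. Under DMSO 9 of the 23 were below 1 CPM. The largest rises were from low levels. HOXB9 had 1 count over the DMSO libraries and 18, 19 and 14 counts with the combination, HOXD13 had 6 and 30, 15 and 30 counts, and HOXD8 had 7 and 20, 24 and 35 counts. HOXB7 went from 20 to 52, 51 and 63 counts, and HOXA13 from 20 to 56, 39 and 60 counts. Among HOX genes with more counts, HOXA3 rose from 16.7, 16.2 and 14.5 CPM to 31.3, 28.6 and 28 CPM, HOXC8 fell from 11.5, 11.5 and 14.1 CPM to 7.38, 8.0 and 6.62 CPM, and HOXA10 did not pass, at -0.11 (SE 0.07), but was called lower at -0.16 without combination A (adjusted p = 0.0472). Of the 15 with a mean of 1 CPM or more, 5 rose and 5 fell. The largest adjusted p among the called genes named for PRC2, PRC1 and developmental factors was 0.00104 (CBX6).

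Several keratins of basal epithelium fell. KRT5 changed by -3.53 (SE 0.07), its partner KRT14 by -3.13 (SE 0.10), KRT6A by -2.79 (SE 0.07), KRT17 by -2.62 (SE 0.07) and KRT16 by -2.59 (SE 0.09). KRT17 was at 591, 606 and 581 CPM under DMSO and 104, 89.2 and 95.1 CPM with the combination. The KRT6 genes and KRT14, KRT16 and KRT17 have near-identical copies, so their separate values are uncertain. In the basal and myoepithelial list 8 of 31 tested members rose and 19 fell, beside 36.5% and 34.5% of all tested genes. The median log2 change of the list was -0.54. Its summed levels were 8598 to 8779.5 CPM under DMSO and 4383 to 4481 CPM with the combination. VIM, the intermediate filament vimentin, fell from 1103, 1038 and 1047 CPM to 326, 381 and 349 CPM, and TAGLN, the smooth muscle protein transgelin, from 18.4, 18.9 and 18.1 CPM to 4.41, 2.86 and 3.16 CPM. Members did not all fall. COL17A1, a hemidesmosome collagen, rose from 5.91, 5.86 and 5.72 CPM to 35.1, 30.6 and 30.6 CPM, KRT15 by 1.74 (SE 0.13), TP63, the basal transcription factor p63, by 0.78 (SE 0.10), and EGFR by 0.54 (SE 0.06). The promoter of KRT5 (chr12:52520345-52520644, GRCh38.p14, minus strand) is shown because KRT5 was the keratin that changed most. It holds 0 matches to the motifs above, so no letter is in capitals.
KRT5: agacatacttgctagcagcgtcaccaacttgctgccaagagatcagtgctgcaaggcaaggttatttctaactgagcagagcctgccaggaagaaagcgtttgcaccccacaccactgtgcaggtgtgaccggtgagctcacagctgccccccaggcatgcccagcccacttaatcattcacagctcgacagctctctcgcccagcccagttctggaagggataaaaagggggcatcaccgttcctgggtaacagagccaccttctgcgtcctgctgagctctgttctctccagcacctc

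Luminal and mammary differentiation genes went both ways, where 36.5% of all tested genes rose and 34.5% fell. Of 30, 22 passed the filter, and 14 rose and 7 fell, with a median log2 change of 0.50, or 0.30 over the 20 with a mean of 1 CPM or more. ELF3, an epithelial ETS factor, was at 19.6, 17.8 and 20.6 CPM under DMSO and 92.1, 81.6 and 89.9 CPM with the combination, GATA3, the luminal GATA factor, at 35.5, 34.4 and 35.7 CPM under DMSO and 90.2, 85 and 84.2 CPM with the combination, and EHF, another epithelial ETS factor, at 24.8, 26.1 and 27.4 CPM under DMSO and 65.2, 71.1 and 68.4 CPM with the combination. Each of these luminal factors had groups that did not overlap, as did 71.9% of all tested genes. SPDEF and AGR2 rose by 2.70 (SE 0.38) and 2.45 (SE 0.20) from under 1 CPM. The simple epithelial keratins KRT8 and KRT18 changed by -0.76 (SE 0.07) and -0.51 (SE 0.07), and PRLR, the prolactin receptor, fell from 54.3, 57.7 and 60.6 CPM to 20.2, 22.6 and 21.9 CPM. Of 18 milk and alveolar secretion genes 5 passed the filter, and 5 rose. They were LCN2, lipocalin 2, at 1.53 (SE 0.07), XDH, xanthine dehydrogenase, at 1.53 (SE 0.09), FOLR1, a folate receptor, at 1.32 (SE 0.12), MFGE8, of milk fat globules, at 0.84 (SE 0.07) and PLIN2, which coats lipid droplets, at 0.83 (SE 0.08). ESR1 did not pass, at -0.04 (SE 0.11), and ERBB2 rose by 0.20 (SE 0.07) but did not pass without combination A (adjusted p = 0.105) or combination C (adjusted p = 0.0509).

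Junction and surface barrier genes went in both directions. In the desmosome, tight junction and gap junction list 14 of 34 tested members rose and 11 fell, with a median log2 change of 0.06 (from 0.00 without combination A to 0.14 without combination B), beside 36.5% and 34.5% of all tested genes. Under total-count scaling 6 fell, without combination C 7, and of the 29 with a mean of 1 CPM or more 11 rose and 11 fell, with a median of 0.02. DSP, desmoplakin, fell from 794, 839 and 826 CPM to 495, 505 and 504 CPM, and PKP1, plakophilin 1, from 115, 112 and 104 CPM to 51.2, 36.8 and 43.5 CPM. GJB2, connexin 26, rose by 1.55 (SE 0.11), and TJP3, a tight junction scaffold, by 2.20 (SE 0.15). In the cornified envelope and S100 list, 27 of 34 passed, and 16 of 27 tested members rose and 4 fell, with a median log2 change of 0.81, while of the 21 with a mean of 1 CPM or more 14 rose and 4 fell, with a median of 0.41. The kallikrein protease KLK5 went from 5 counts to 158, 114 and 179 counts, PPL, periplakin, from 28.5, 33.1 and 29.2 CPM to 96, 82.6 and 95.4 CPM, and S100P from 107, 107 and 109 CPM to 313, 280.2 and 347 CPM. Among cadherins, 11 of 22 tested members rose and 6 fell, with a median log2 change of 0.39 (from 0.32 without DMSO B to 0.65 without combination B, and 0.17 in the fit of the 6 libraries alone). With a stricter filter of 1 CPM 7 rose, and of the 13 with a mean of 1 CPM or more 6 rose and 5 fell, with a median of 0.08. CDH1 fell by 0.38 (SE 0.05), and CDH2, the neural cadherin of mesenchymal cells, from 236, 243 and 249 CPM to 118, 134 and 125 CPM. In the list of epithelial-mesenchymal transition factors 7 of 24 tested members rose and 12 fell, with a median log2 change of -0.10, or 0.04 under total-count scaling. SNAI1 fell from 102, 104 and 104 CPM to 46.6, 35 and 40.5 CPM and ZEB2 from 29, 30.1 and 35.4 CPM to 12.5, 14.7 and 12.1 CPM. OVOL1, a repressor of the transition, rose by 2.04 (SE 0.13), while PRRX1, which promotes it in other cells, rose by 1.28 (SE 0.09). Across the called keratin, luminal and junction genes named, apart from ERBB2, adjusted p was at most 4.31e-06 (KRT18).

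Collagens fell in most cases, with exceptions, where 36.5% of all tested genes rose and 34.5% fell. Among fibrillar and network collagens 7 of 27 tested members rose and 18 fell, with a median log2 change of -0.75, and summed levels were 5974 to 6213 CPM under DMSO and 2205 to 2634 CPM with the combination. COL4A1, of basement membranes, was at 489, 495 and 458 CPM under DMSO and 115, 94.4 and 107 CPM with the combination, COL5A1 at 207, 207 and 190.0 CPM under DMSO and 54.6, 37.3 and 49.3 CPM with the combination and COL5A3 at 255, 259 and 257 CPM under DMSO and 74.3, 51.8 and 65.1 CPM with the combination. Combination and DMSO libraries were apart in each, as in 71.9% of all tested genes. COL1A2, the partner chain of COL1A1, had 67 counts over the DMSO libraries and 13 with the combination. COL9A3 and COL8A2 rose by 1.20 (SE 0.11) and 1.86 (SE 0.14). Among matricellular and proteoglycan genes 14 of 39 tested members rose and 18 fell, with a median log2 change of -0.17 (from -0.17 without DMSO C to 0.06 without combination B). MGP, matrix Gla protein, which keeps soft tissue from calcifying, rose from 13.4, 14.9 and 16.2 CPM to 185, 198 and 204 CPM. LOXL4, a collagen crosslinking enzyme, rose by 4.01 (SE 0.16), and NOV, a CCN family protein, by 2.20 (SE 0.08). FBLN1, fibulin 1, went from 1.64, 1.8 and 2.03 CPM to 14, 14.9 and 14.6 CPM. CYR61, another CCN family protein, fell from 368, 378 and 386 CPM to 91.3, 89.7 and 95.3 CPM, VCAN, versican, from 286, 290.5 and 302 CPM to 78.6, 85.6 and 83.2 CPM, and DCN, decorin, from 90.1, 100.3 and 106 CPM to 24.4, 35.7 and 32 CPM.

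Among integrins and laminins 11 of 29 tested members rose and 11 fell, with a median log2 change of -0.04 (36.5% and 34.5% of all tested genes did so), or 0.10 under total-count scaling. ITGA5, the fibronectin receptor subunit, fell from 185, 198 and 195 CPM to 61.3, 51.5 and 60.5 CPM, and LAMA3, of laminin 332, from 839, 857 and 837 CPM to 299, 298 and 294 CPM. ITGA2, a collagen receptor subunit, rose from 129.5, 139.6 and 149 CPM to 391, 389.6 and 414 CPM, and ITGB8 from 55.4, 54.2 and 57.2 CPM to 142, 153 and 145 CPM. Among metalloproteinases and their inhibitors 11 of 31 tested members rose and 9 fell, with a median log2 change of -0.05, or 0.09 under total-count scaling. The inhibitors TIMP1, TIMP2 and TIMP3 rose by 1.12 (SE 0.07), 0.99 (SE 0.06) and 4.29 (SE 0.12), TIMP3 from 2.06, 2.89 and 3.07 CPM to 52.5, 52.3 and 49.9 CPM. Several proteases fell, among them ADAM19 by 1.78 (SE 0.07), MMP9 by 1.52 (SE 0.10), ADAM15 by 1.04 (SE 0.09) and MMP14 by 0.98 (SE 0.09). In the coagulation, plasminogen and serpin list 9 of 29 tested members rose and 17 fell, with a median log2 change of -0.33 (from -0.35 without combination B to -0.16 without combination C), while of the 25 with a mean of 1 CPM or more 8 rose and 15 fell, with a median of -0.18. The thrombin receptor F2R rose from 1.5, 2.05 and 1.99 CPM to 35.8, 41.5 and 34.9 CPM, and THBD, thrombomodulin, by 1.89 (SE 0.10). PLAU, the urokinase protease, changed by -1.35, and SERPINH1, the collagen chaperone, by -1.35. SERPINB7 and SERPINB2 fell by 2.35 and 2.26. The largest adjusted p among the called collagen, matrix, integrin and protease genes named was 1.37e-08 (COL9A3).

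Targets of YAP and TEAD, the effectors of Hippo signalling, fell more often than they rose. In this list 4 of 25 tested members rose and 16 fell, with a median log2 change of -0.38. The lists of this paragraph stand beside 36.5% of all tested genes that rose and 34.5% that fell. For the highest level bin these shares were 24.3% and 54.5%. The fall of CYR61 and F3 is given above. CTGF changed by -0.76, NUAK2 by -1.54 and TEAD4 by -0.95, while NT5E, the ectoenzyme CD73, rose from 26.3, 28.8 and 30.6 CPM to 82, 97.8 and 89.4 CPM. In the Notch list 9 of 25 tested members rose and 9 fell, with a median log2 change of -0.04. The median turned to 0.10 under total-count scaling and 0.04 without combination B. JAG1, a Notch ligand, was at 994, 1011 and 968 CPM under DMSO and 187, 184 and 196 CPM with the combination, and NOTCH3 at 544, 538 and 512 CPM under DMSO and 263, 189 and 234 CPM with the combination. The Notch target genes NRARP, HES4 and HES1 fell by 1.54, 1.55 and 0.94, while HEY1 rose by 1.26 (SE 0.11). In the WNT list 21 of 40 tested members rose and 9 fell, with a median log2 change of 0.37, or 0.17 over the 35 members with a mean of 1 CPM or more. WNT6 rose from 3.87, 4.63 and 3.96 CPM to 17.2, 15.4 and 18.2 CPM, and WNT5A and RSPO3, an amplifier of WNT signals, fell by 0.76 and 1.40. In the TGF-beta and BMP list 20 of 39 tested members rose and 14 fell, with a median log2 change of 0.21. INHBB, an activin subunit, rose from 2.13, 2.29 and 1.77 CPM to 15.5, 16.6 and 14.3 CPM, ID2, a BMP target, from 28, 29.7 and 27.9 CPM to 88.3, 113 and 88.3 CPM, and TGFBR1, a type I receptor, fell from 308, 338 and 339 CPM to 177, 214 and 203 CPM. Adjusted p among the called genes here was at most 4.38e-08 (TGFBR1).

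**Figure D4:**
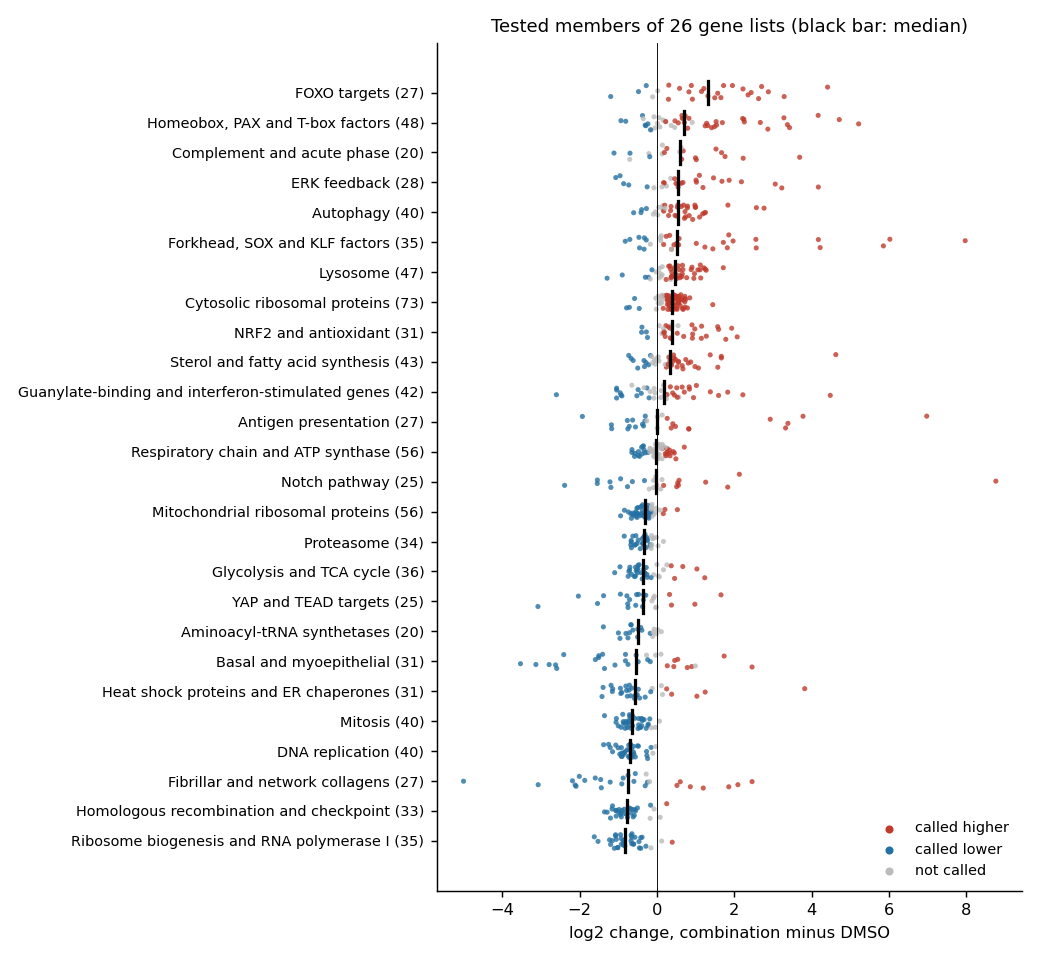
Each dot is a tested member of 1 of 26 gene lists, placed by its log2 change and coloured by call, with the number of tested members in brackets and the median as a black bar. FOXO targets lie furthest to the right (median 1.32), and ribosome biogenesis (-0.83), homologous recombination (-0.78) and collagens (-0.75) furthest to the left.

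Genes of the cell cycle fell nearly throughout, where 34.5% of all tested genes and 54.5% of the highest level bin fell. Of 40 DNA replication genes 0 rose and 38 fell, with a median of -0.71, and summed levels were 5364 to 5528 CPM under DMSO and 3296 to 3481 CPM with the combination. MCM10, which helps start replication forks, was at 99.7, 99.4 and 96.5 CPM under DMSO and 39.9, 41.3 and 42.6 CPM with the combination, ORC1, of the origin recognition complex, at 80.1, 77.3 and 76.7 CPM under DMSO and 32.4, 29.1 and 28.4 CPM with the combination, and CDC6, which loads the helicase, at 84.9, 84.6 and 89.4 CPM under DMSO and 39.3, 44.6 and 39.7 CPM with the combination. Each had groups that did not overlap, as did 71.9% of all tested genes. PCNA, the sliding clamp, and RPA3 did not pass, at -0.11 (SE 0.09) and -0.03 (SE 0.09), but PCNA was called lower at -0.25 without combination B (adjusted p = 0.00118). Of 33 homologous recombination and checkpoint genes 1 rose and 29 fell, with a median of -0.78. FANCA changed by -1.36 (SE 0.08), RAD54L by -1.29 (SE 0.07) and XRCC2 by -1.21 (SE 0.11), and RMI2 rose by 0.25 (SE 0.07). Of 40 mitotic genes 0 rose and 37 fell, with a median of -0.65. Among the DNA replication and mitosis genes 0 were higher at an unadjusted p under 0.05 in edgeR, and DESeq2 called 0 higher. AURKA and PLK1, kinases of the spindle, changed by -1.06 (SE 0.07) and -1.00 (SE 0.06), CDC20, the activator of the anaphase-promoting complex, by -1.05 (SE 0.06) and KIF18B by -1.36 (SE 0.10). TOP2A, CCNB2 and CDC25C did not pass, at -0.14, -0.04 and 0.06. Without combination B, TOP2A and CCNB2 were called lower at -0.23 (adjusted p = 0.00151) and -0.15 (adjusted p = 0.0294), and under total-count scaling CDC25C was called higher at 0.20 (adjusted p = 0.0238). MKI67, the proliferation marker, was at 463, 494 and 444 CPM under DMSO and 283, 255 and 227 CPM with the combination.

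Among G1 cyclins and CDK inhibitors, 6 of 25 tested members rose and 15 fell, beside 36.5% and 34.5% of all tested genes. The median log2 change of this list was -0.38. CCND1, the cyclin that brings cells through G1, was at 396, 393 and 377 CPM under DMSO and 222, 196 and 209 CPM with the combination, and CDK6, its kinase, at 175, 182 and 181 CPM under DMSO and 86.3, 85.7 and 89.7 CPM with the combination. CDC25A, a phosphatase that activates CDK2, fell by 1.69 (SE 0.07), and CDK2 by 1.12 (SE 0.06). CDKN1C, the CDK inhibitor p57, rose from 0.281, 0.602 and 0.36 CPM to 3.4, 2.31 and 2.56 CPM, CCNE1, cyclin E1, by 0.56 (SE 0.07), RBL2, an RB family protein, by 0.48 (SE 0.06) and CDKN1A, the inhibitor p21, by 0.31 (SE 0.10). CDKN1A did not pass without combination A (0.23, adjusted p = 0.0591) or combination C (0.26, adjusted p = 0.0614). In the MYC network 5 of 18 tested members rose and 8 fell, with a median log2 change of -0.09, or 0.05 under total-count scaling. MYC was at 138, 136 and 136 CPM under DMSO and 84.7, 77.8 and 83.3 CPM with the combination. MXD4 and MXI1, which oppose MYC, were at 11.3, 11.5 and 11.3 CPM under DMSO and 56.8, 42.4 and 53.2 CPM with the combination, and at 14.4, 14.4 and 15.5 CPM under DMSO and 50.1, 58.5 and 50.7 CPM with the combination. MYC went down and its antagonists up in every library of the combination. Groups did not overlap in 71.9% of all tested genes. Among the called cell cycle and MYC genes the largest adjusted p was 0.00994 (CDKN1A).

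The machinery that builds ribosomes and the mRNAs of ribosomal proteins moved in opposite directions. In the highest level bin 24.3% of genes rose and 54.5% fell, and of all tested genes 36.5% rose and 34.5% fell. Of 35 genes of ribosome biogenesis and RNA polymerase I, 1 rose and 32 fell, with a median of -0.83. NOP56, a core protein of box C/D snoRNPs, was at 309, 310.3 and 316 CPM under DMSO and 132, 135 and 139 CPM with the combination, NOP2, an rRNA methyltransferase, at 144, 139 and 135 CPM under DMSO and 63, 56.6 and 59.3 CPM with the combination, and POLR1A, the largest subunit of RNA polymerase I, at 149, 141 and 141 CPM under DMSO and 72.6, 62.2 and 69.5 CPM with the combination. These 3 fell by more than 1 on the log2 scale, with no overlap, which 71.9% of all tested genes also lacked. POLR1D, shared with RNA polymerase III, rose by 0.39 (SE 0.05). Of 73 cytosolic ribosomal protein genes tested, 59 rose and 4 fell, with a median of 0.40. Their summed level was 30130.1 to 30647 CPM under DMSO and 39322 to 42785 CPM with the combination. RPS4X was at 1054, 1034 and 1094 CPM under DMSO and 1686, 2139 and 1901 CPM with the combination and RPL15 at 379, 382 and 386 CPM under DMSO and 587, 660.5 and 639 CPM with the combination. RPL13A rose most, by 1.44 (SE 0.07), while RPL17, RPS26, RPS10 and RPL9 fell. These genes have many processed copies, and reads of some members may align to several places, so single values are uncertain. Reads set aside as not uniquely aligned made up 9.81% to 10.6% of DMSO and 11.2% to 12.2% of combination libraries, and their part in the result was not tested.

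Genes of tRNA charging, mitochondrial ribosomes, the proteasome and chaperones mostly fell. Of all tested genes 34.5% fell, and of the highest level bin 54.5%. Of 20 aminoacyl-tRNA synthetases 0 rose and 14 fell, with a median of -0.50, VARS going from 387, 373 and 359 CPM to 157, 124 and 147 CPM. Of 56 mitochondrial ribosomal protein genes 3 rose and 44 fell, with a median of -0.31, but 26 fell under total-count scaling. MRPL12 was at 247, 246 and 235 CPM under DMSO and 135, 106 and 137 CPM with the combination. Among translation factors 14 of 44 tested members rose and 17 fell, with a median log2 change of -0.08, or 0.06 under total-count scaling. EIF4G1, the scaffold of cap-dependent initiation, was at 1409, 1394 and 1375 CPM under DMSO and 736, 619 and 687 CPM with the combination, and EIF5A at 1419, 1404 and 1392 CPM under DMSO and 711, 589.8 and 672 CPM with the combination. EEF1A2, the elongation factor of muscle and neurons, rose from 84.1, 84.1 and 85.3 CPM to 491, 418 and 487 CPM, and EIF4E3, an atypical cap-binding protein, from 3.26, 4.0 and 3.4 CPM to 36, 37.9 and 33.6 CPM. Of 34 proteasome genes 0 rose and 24 fell, with a median of -0.33. Among the synthetases and the proteasome genes, 0 were higher at an unadjusted p under 0.05 in edgeR, and DESeq2 called 0 higher. Other settings did call some higher. Under total-count scaling 2 proteasome genes and 1 synthetase rose, and 19 proteasome genes fell. With a stricter filter of 1 CPM 1 of each rose. Without combination A 1 proteasome gene rose, and without combination B 1 synthetase. Of 31 heat shock proteins and endoplasmic reticulum chaperones 5 rose and 23 fell, with a median of -0.58. HSPB1 was at 447, 434 and 423 CPM under DMSO and 187, 135 and 174 CPM with the combination, HYOU1 at 959, 1012 and 999 CPM under DMSO and 475, 393 and 464 CPM with the combination and HSPA8 at 2554, 2386 and 2588 CPM under DMSO and 1171, 1446 and 1288 CPM with the combination. HSPB8, a small heat shock protein that acts in selective autophagy, rose from 0.844, 0.662 and 0.654 CPM to 10.5, 9.12 and 11.4 CPM. In the ATF4 and amino acid list 12 of 32 tested members rose and 14 fell, with a median log2 change of -0.14 (from -0.20 without combination A to -0.09 without combination B). The amino acid carriers SLC7A5 and SLC1A5 fell by 1.05 (SE 0.08) and 1.13 (SE 0.08), and the stress gene NUPR1 and the cystine carrier SLC7A11 rose by 2.88 (SE 0.09) and 1.15 (SE 0.09).

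Autophagy and lysosome genes mostly rose, where 36.5% of all tested genes rose and 34.5% fell. Among autophagy genes 28 of 40 tested members rose and 4 fell, with a median log2 change of 0.53, with summed levels of 2203 to 2244 CPM under DMSO and 4059.5 to 4152 CPM with the combination. SQSTM1, the cargo receptor p62, was at 385, 377 and 382 CPM under DMSO and 1470.0, 1213 and 1397 CPM with the combination, and WIPI1, which acts on the forming autophagosome, at 8.46, 9.32 and 8.83 CPM under DMSO and 49.1, 58.2 and 50.6 CPM with the combination. TP53INP1 rose by 2.77 (SE 0.13), MAP1LC3B, the lipidated marker LC3B, by 1.25 (SE 0.08) and GABARAP by 1.18 (SE 0.06). ATG9A, the membrane carrier, fell by 0.61 (SE 0.07). Among lysosome genes 33 of 47 tested members rose and 5 fell, with a median log2 change of 0.47, and 3 fell under total-count scaling. CTSD, cathepsin D, was at 563, 597 and 589 CPM under DMSO and 1399, 1101 and 1301 CPM with the combination, NEU1, a sialidase, at 56.9, 60.8 and 60.3 CPM under DMSO and 148, 136 and 146 CPM with the combination and NPC2, a cholesterol carrier, at 82.2, 90.1 and 88.8 CPM under DMSO and 203, 204 and 211 CPM with the combination. The libraries of each group kept apart in all 3, as in 71.9% of all tested genes. CTSC, cathepsin C, went the other way, from 654, 689.9 and 701 CPM to 247, 318 and 269.8 CPM.

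Most glycolysis genes fell, while more lipid synthesis genes rose than fell. Of all tested genes 36.5% rose and 34.5% fell, and of the highest level bin 24.3% and 54.5%. In the glycolysis and TCA cycle list 5 of 36 tested members rose and 25 fell, with a median log2 change of -0.36, and 8 rose under total-count scaling. SLC16A3, the lactate exporter MCT4, fell from 1043, 1072 and 1025 CPM to 545, 405 and 519 CPM, SLC2A1, the glucose carrier GLUT1, from 226, 221 and 222 CPM to 126, 104 and 114 CPM, and LDHA, lactate dehydrogenase, from 1257, 1241 and 1318 CPM to 693, 823 and 758 CPM. PC, pyruvate carboxylase, rose by 1.23 (SE 0.08) and IDH1 by 1.03 (SE 0.07). In the pyruvate dehydrogenase list 7 of 13 tested members rose and 4 fell, with a median log2 change of 0.29. The inhibitory kinases PDK2, PDK3 and PDK4 rose, PDK2 from 15.7, 18.1 and 15.8 CPM to 65.5, 59 and 61.8 CPM and PDK3 by 0.79 (SE 0.07), while PDK1 fell by 0.63 (SE 0.08). The complex subunits PDHA1, DLAT and DLD fell by 0.48, 0.39 and 0.52, and PDHB rose by 0.29. Among respiratory chain and ATP synthase genes 12 of 56 tested members rose and 14 fell, with a median log2 change of -0.02. Under total-count scaling 25 of them rose with a median of 0.12, and 20 rose without tazemetostat A and combination B. In the sterol and fatty acid list 25 of 43 tested members rose and 9 fell, with a median log2 change of 0.34. ACSS2, which makes acetyl-CoA from acetate, rose from 57.5, 58.2 and 59 CPM to 182, 187 and 185 CPM, and INSIG1, which retains the sterol sensor, by 1.07 (SE 0.07). ACLY, the source of cytosolic acetyl-CoA from citrate, fell by 0.73 (SE 0.05).

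Most genes of antioxidant defence rose, as did both ferritin chains, where 36.5% of all tested genes rose and 34.5% fell. In the NRF2 list 22 of 31 tested members rose and 4 fell, with a median log2 change of 0.38. GCLC, the rate-limiting subunit of glutathione synthesis, was at 37.4, 37.8 and 39.4 CPM under DMSO and 134, 162 and 141 CPM with the combination, and SOD2, the mitochondrial superoxide dismutase, at 127, 121 and 124 CPM under DMSO and 339.9, 386 and 379 CPM with the combination. The aldo-keto reductases AKR1C1, AKR1C2 and AKR1C3 rose by 1.78, 2.07 and 1.59, values that are uncertain because their sequences are near-identical. In the iron, zinc and metallothionein list 11 of 23 tested members rose and 11 fell, with a median log2 change of 0.18 (from 0.11 without combination C to 0.19 without DMSO A). FTL, the ferritin light chain, was at 852, 846 and 835 CPM under DMSO and 1674, 1429 and 1649 CPM with the combination, and SLC40A1, the iron exporter ferroportin, rose by 1.89 (SE 0.21). TFRC, the transferrin receptor that brings iron into cells, fell from 509, 518 and 537 CPM to 313, 323 and 323 CPM, and the zinc importers SLC39A10 and SLC39A14 fell by 1.56 (SE 0.09) and 1.03 (SE 0.06). The largest adjusted p among the called metabolic, lysosomal and protein synthesis genes of the last paragraphs was 0.00298 (RPS10).

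Interferon-induced genes went in both directions. In this list 17 of 42 tested members rose and 12 fell, with a median log2 change of 0.18 (from 0.06 without combination A to 0.24 without combination B), where 36.5% of all tested genes rose and 34.5% fell. GBP2, a guanylate-binding GTPase, was at 3.54, 3.4 and 4.02 CPM under DMSO and 77.3, 86.9 and 80.1 CPM with the combination, while its paralog GBP1 was at 7.67, 7.88 and 6.96 CPM under DMSO and 1.0, 1.38 and 1.31 CPM with the combination. The 2 genes thus changed by 4.48 (SE 0.09) and -2.60 (SE 0.15), though paralogs of this family share sequence and their reads may be divided. OAS1, which senses double-stranded RNA, rose by 2.22 (SE 0.19) and its relative OAS3 fell by 1.04 (SE 0.07). IFITM1, a membrane protein that blocks viral entry, rose by 1.02 (SE 0.08), and IFI44L and DDX60 fell by 1.05 (SE 0.11) and 1.05 (SE 0.08). RSAD2 rose by 1.59 (SE 0.54) but did not pass without combination A (0.96, adjusted p = 0.141) or DMSO C (1.19, adjusted p = 0.0544). The promoter of GBP1 (chr1:89065159-89065458, GRCh38.p14, minus strand) is shown because GBP1 changed most among the list members with a promoter in the table. Capitals mark 2 matches to the interferon element core GAAANNGAA, 1 of them on the opposite strand, which begin 126 bases before and 38 bases after the start.
GBP1: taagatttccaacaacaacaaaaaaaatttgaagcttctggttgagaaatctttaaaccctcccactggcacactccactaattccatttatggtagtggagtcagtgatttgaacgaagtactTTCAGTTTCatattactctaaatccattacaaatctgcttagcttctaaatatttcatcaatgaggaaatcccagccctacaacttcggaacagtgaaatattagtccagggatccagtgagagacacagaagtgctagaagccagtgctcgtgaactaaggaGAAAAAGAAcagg
That core occurs in 6.5% of all promoters of tested genes, in 7% of those more than 2-fold higher and in 7.55% of those more than 2-fold lower.

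Genes of antigen presentation moved in both directions, where 36.5% of all tested genes rose and 34.5% fell. Of its members 11 of 27 tested rose and 12 fell, and 6 rose with a stricter filter of 1 CPM. The peptide transporters TAP1 and TAP2 and the immunoproteasome subunit PSMB9 fell, TAP2 from 215, 221 and 218 CPM to 65.5, 47.8 and 57.9 CPM, TAP1 by 1.17 (SE 0.07) and PSMB9 by 1.18 (SE 0.10). The calcium-binding chaperone CALR fell from 2622, 2912 and 2934 CPM to 1578, 1756 and 1639 CPM. HLA-B rose from 64.3, 72.6 and 68.6 CPM to 124, 112 and 128 CPM, a value that near-identical HLA genes make uncertain. Genes of class II appeared at low levels, HLA-DRA going from 4 counts in all under DMSO to 12, 22 and 17 counts, HLA-DMB from 0 to 11, 7 and 23 counts and CD74 from 6 to 13, 17 and 11 counts. The list median of 0.00 was -0.27 in the fit of the 6 libraries alone, -0.01 without combination B and -0.31 over the 21 members with a mean of 1 CPM or more. In the list of nucleic acid sensing 7 of 16 tested members rose and 6 fell, with a median log2 change of 0.15. MB21D1, the DNA sensor cGAS, fell from 24.1, 21.8 and 20.9 CPM to 9.67, 7.66 and 8.8 CPM, and TMEM173, its partner STING, rose by 0.48 (SE 0.08).

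Among chemokines and interleukins 13 of 31 tested members rose and 11 fell, beside 36.5% and 34.5% of all tested genes. The median log2 change was -0.08, or 0.05 under total-count scaling. The same shares apply to the other lists of this paragraph. IL1B fell from 39.3, 41.2 and 41.6 CPM to 15.3, 16.8 and 16.9 CPM, LIF, a cytokine of the IL6 family, from 30.2, 33.4 and 27.7 CPM to 16.3, 12.1 and 14.8 CPM, and CXCL6 from 14.7, 17 and 16.5 CPM to 3.4, 5.62 and 4.82 CPM. IL18 rose from 52.3, 52.4 and 55.4 CPM to 117, 144 and 129 CPM. In the NF-kB and TNF list 10 of 34 tested members rose and 12 fell, with a median log2 change of -0.03, or 0.10 under total-count scaling. TNFSF10, the death ligand TRAIL, rose from 0.328, 0.271 and 0.49 CPM to 4.41, 5.77 and 4.68 CPM, and TNFRSF11B, the decoy receptor osteoprotegerin, from 29.9, 35.9 and 39.9 CPM to 159, 225 and 184 CPM. Of 29 complement and acute phase genes 20 passed the filter, and 11 rose and 3 fell, with a median of 0.61. CHI3L1, a chitinase-like secreted protein, rose from 7.08, 7.49 and 8.99 CPM to 95.2, 101 and 106 CPM, and CD55, which shields cells from complement, from 132, 149.5 and 157 CPM to 403, 532 and 458 CPM. In the STAT and mammary involution list 11 of 29 tested members rose and 11 fell, with a median log2 change of -0.01, or 0.12 under total-count scaling and 0.06 without combination B. STAT5A rose by 0.96 (SE 0.10), and the feedback inhibitors CISH and SOCS2 fell by 1.20 (SE 0.18) and 0.58 (SE 0.08). Across the called immune genes named, apart from RSAD2, adjusted p was at most 8.82e-05 (CD74).

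Genes of the BCL2 family changed in part. Of 8 BH3-only genes, which start apoptosis, 4 rose and 2 fell, beside 36.5% and 34.5% of all tested genes. BMF was at 5.81, 4.93 and 5.72 CPM under DMSO and 26.9, 24.9 and 25.6 CPM with the combination, BBC3, also known as PUMA, at 3.38, 3.73 and 2.62 CPM under DMSO and 8.77, 7.74 and 8.85 CPM with the combination, and HRK at 0.914, 0.812 and 0.85 CPM under DMSO and 4.83, 3.79 and 4.06 CPM with the combination. BCL2L11, also known as BIM, rose by 0.34 (SE 0.08). BID and PMAIP1, also known as NOXA, changed by -0.17 (SE 0.07) and -0.23 (SE 0.10) and each lost its call in at least 1 fit that left out a library, with adjusted p up to 0.113 and 0.199. BIK and BAD did not pass, at 0.07 (SE 0.13) and -0.09 (SE 0.12). Of 10 tested guardians and pore formers, 3 rose and 4 fell. BCL2, the founding guardian, rose from 3.12, 1.95 and 2.16 CPM to 5.05, 6.06 and 5.77 CPM. Its relatives BCL2L14 and BCL2L10 rose by 2.99 (SE 0.51) and 2.02 (SE 0.39) from 8 and 18 counts over the DMSO libraries. BCL2L12 and BCL2L2 fell by 0.75 (SE 0.10) and 0.27 (SE 0.06), and BOK did not pass, at -0.10 (SE 0.11). Under total-count scaling BCL2L2 did not pass (adjusted p = 0.0612). MCL1 and BCL2L1, inhibitors of apoptosis, were at -0.12 (SE 0.05) and -0.16 (SE 0.07) and did not pass, though both did with DESeq2 (adjusted p = 0.0227 and 0.0404), MCL1 without combination B (-0.12, adjusted p = 0.0393) and BCL2L1 without combination A (-0.21, adjusted p = 0.0166). BAK1, a pore former, fell from 52.8, 54.3 and 48.1 CPM to 35.7, 23.7 and 32.1 CPM, and BAX changed by -0.27 (SE 0.10), or -0.11 without combination B (adjusted p = 0.201) and -0.22 without DMSO A (adjusted p = 0.113). Among BMF, BBC3, HRK, BCL2L11, BCL2, BCL2L14, BCL2L10, BCL2L12, BCL2L2 and BAK1 adjusted p was at most 0.000729 (BCL2L2).

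Receptor, channel and transporter genes were mixed, and several rose from low levels. The lists of this paragraph stand beside 36.5% of all tested genes that rose and 34.5% that fell. Among nuclear receptors 20 of 34 tested members rose and 7 fell, with a median log2 change of 0.35, or 0.28 over the 30 with a mean of 1 CPM or more. NR4A2, an immediate early orphan receptor, rose from 14.2, 13.8 and 13.4 CPM to 68.3, 76.3 and 67.6 CPM, and its relatives NR4A1 and NR4A3 fell by 0.52 (SE 0.10) and 1.09 (SE 0.14). Among ion channels 38 of 50 passed, and 22 rose and 8 fell, while of the 32 with a mean of 1 CPM or more 17 rose and 7 fell. ANO1, a calcium-activated chloride channel, rose from 4.92, 6.08 and 5.33 CPM to 23.4, 23.2 and 22.6 CPM, and the potassium channel KCNJ2 by 3.24 (SE 0.19). Among G protein-coupled receptors 14 of 40 tested members rose and 17 fell, with a median log2 change of -0.16, or 0.22 without the low-count filter. S1PR3, a receptor of sphingosine 1-phosphate, fell from 148, 159 and 157 CPM to 46.2, 49.4 and 49.4 CPM. In the axon guidance and ephrin list 22 of 44 tested members rose and 18 fell, with a median log2 change of 0.20 (from 0.12 without DMSO B to 0.22 without combination B). SEMA7A and SLIT2 fell by 2.41 (SE 0.11) and 1.23 (SE 0.06), EPHA2 fell from 433, 425 and 409 CPM to 223, 181 and 219.5 CPM, and EFNB3 and SEMA3C rose by 1.87 (SE 0.09) and 1.42 (SE 0.08). Among ABC transporters 10 of 30 tested members rose and 17 fell, with a median log2 change of -0.28. ABCC3, an organic anion exporter, rose from 76.7, 78.9 and 75.1 CPM to 185, 149 and 177 CPM, and ABCC1, another exporter of drugs and conjugates, fell from 155, 162 and 165 CPM to 97.1, 82.3 and 90.4 CPM. Adjusted p among these genes was at most 9.69e-05 (NR4A1).

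Markers of other cell types were checked because collagens and decorin are also fibroblast genes. Of 20 markers 13 passed the filter, and 4 rose and 7 fell, beside 36.5% and 34.5% of all tested genes. The summed level of the tested markers was 932 to 982 CPM under DMSO and 299.6 to 351 CPM with the combination. Most of it came from COL1A1 and CD68, a lysosomal protein best known in macrophages, which changed by -0.66 (SE 0.07). The fibroblast markers COL1A1, COL3A1, DCN and LUM, lumican, fell, LUM from 9.66, 9.14 and 11.6 CPM to 2.26, 2.05 and 1.5 CPM. FABP4 of adipocytes fell from 502 to 141 counts per group, while CDH5 of endothelium rose from 21 to 88 and PLIN1 of adipocytes from 24 to 73. PDGFRA, another fibroblast marker, had 1 count over the DMSO and 7 over the combination libraries, and COL1A2 was under 1 CPM in all 6. The fibroblast marker PDGFRB did not go down. It had 21 counts under DMSO (0.131 to 0.241 CPM) and 26 with the combination (0.245 to 0.322 CPM). The endothelial marker PECAM1 rose from 0.961, 0.692 and 1.11 CPM to 3.44, 4.17 and 5.2 CPM. VWF and KDR, also endothelial, could not be tested and had 4 and 28 counts, and 1 and 5 counts. The leukocyte marker PTPRC rose from 0.234, 0.331 and 0.392 CPM to 1.47, 2.2 and 1.55 CPM, while CD3E had 1 and 2 counts and LYZ had 6 and 7. ADIPOQ, of adipocytes, had 0 counts in all 6 libraries.

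The leading genes were also compared with each drug alone in the same fit. Of all tested genes, 39.1% differed between the combination and ipatasertib and 60.6% between the combination and tazemetostat. IGFBP5 was at 4.71 CPM with ipatasertib, 69.3 CPM with tazemetostat and 304 CPM with both, and differed from each (6.04 against ipatasertib and 2.13 against tazemetostat). CHRM3 was at 5.74 CPM with ipatasertib, 9.95 CPM with tazemetostat and 55.9 CPM with both, and RORB at 1.28 CPM with ipatasertib, 1.4 CPM with tazemetostat and 14.2 CPM with both. For these genes the combination was several times above either drug alone. PDK4 was at 15.5 CPM with ipatasertib, 3.12 CPM with tazemetostat and 41.1 CPM with both, and GBP2 at 26.5 CPM with ipatasertib, 6.71 CPM with tazemetostat and 81.4 CPM with both. COL3A1 was at 13.7 CPM with ipatasertib, 2.3 CPM with tazemetostat and 0.961 CPM with both, nearer to tazemetostat, and KRT5 at 146 CPM with ipatasertib, 480.1 CPM with tazemetostat and 54.6 CPM with both, nearer to ipatasertib. Not every gene was most extreme with both drugs. B3GAT1 was at 0.504 CPM with ipatasertib, 23 CPM with tazemetostat and 16.2 CPM with both, THBS1 at 4353 CPM with ipatasertib, 856 CPM with tazemetostat and 1693 CPM with both, and GREM1 at 3496 CPM with ipatasertib, 1199 CPM with tazemetostat and 1309 CPM with both. THBS1 was thus lower with tazemetostat alone than with the combination, by 0.98 on the log2 scale (edgeR adjusted p = 1.99e-11).

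**Figure D5:**
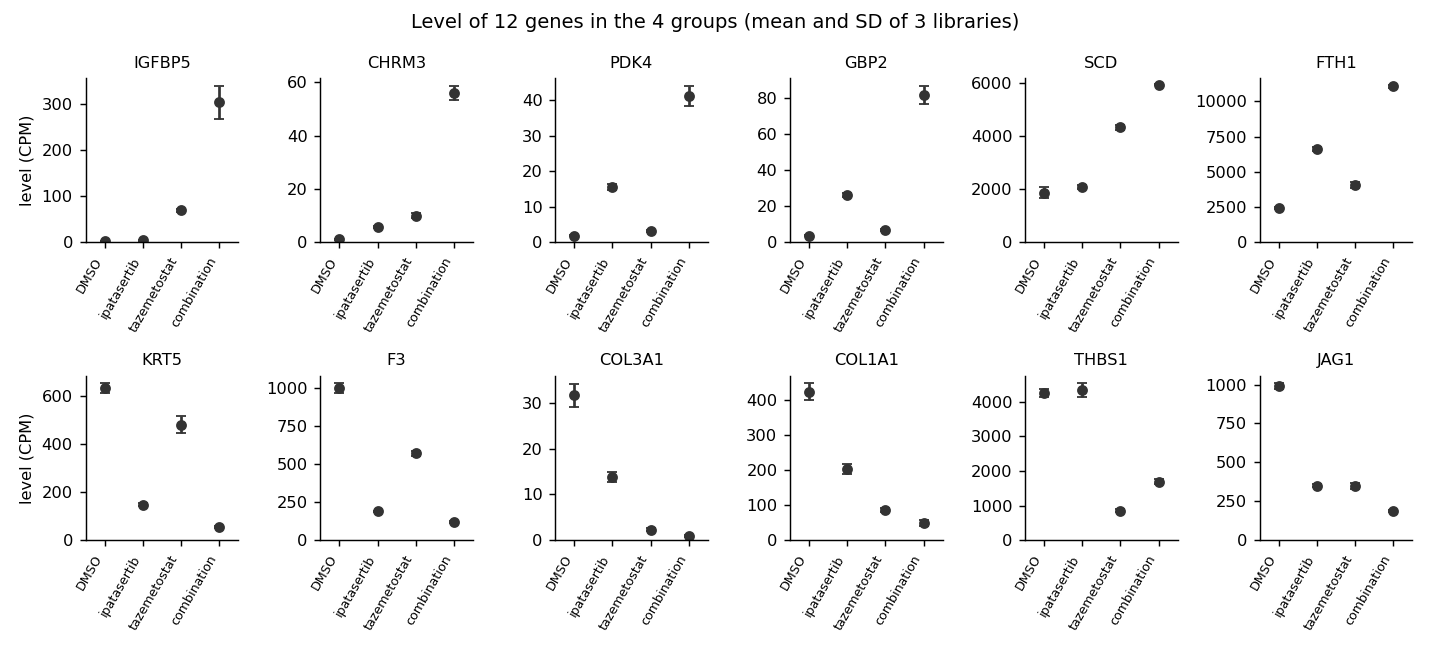
Points are mean CPM and bars the SD of 3 libraries for 12 genes in DMSO, ipatasertib, tazemetostat and the combination, on linear axes that start at 0. The combination is the highest group for the 6 genes of the upper row, and the lowest for those of the lower row except THBS1, which was lowest with tazemetostat.

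Among 240 genes with a mean of at least 500 CPM over both groups, the 5 with the smallest change were FADS1, a fatty acid desaturase, YWHAZ, a 14-3-3 protein, KTN1, kinectin, RPS2, of the small ribosomal subunit, and GSTP1, a glutathione transferase. Their changes lay between -0.02 (GSTP1) and 0.02 (YWHAZ), and 0.981 (FADS1) was the largest adjusted p. FADS1 was at 630.1, 711 and 726 CPM under DMSO and 689, 688 and 688 CPM with the combination. The groups overlapped for each of them. These values are relative to TMM scaling, and FADS1 and YWHAZ rose by 0.13 and 0.15 under total-count scaling. GSTP1 and RPS2 rose by 0.11 and 0.10 without tazemetostat A and combination B, where KTN1 was called lower at -0.13.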

How the data were processed

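RNA of 12 samples of SUM149PT cells was sequenced. The authors deposited raw read counts by gene symbol, 1 file per library. Their processing notes, per the labels, name STAR, SAMtools, HTSeq, DESeq2 and build hg19. Which annotation, versions and strand option applied is not given in the sources used here. Library sizes exclude the 5 closing lines of each file, which hold reads without a gene. The deposited counts of all 12 libraries were fitted with edgeR 4.0.16 (R 4.3.3, limma 3.58.1), with filterByExpr, TMM factors, 1 coefficient per group, quasi-likelihood F-tests and Benjamini-Hochberg adjustment over 14874 genes at 0.05. The fit was run on simulated data in which few genes changed, so that run cannot check the scaling where most genes differ. Alternatives included DESeq2 1.42.0. CPM intervals and floors cover counting error only.

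Members and 63 gene lists were chosen with earlier results of these data known. Named genes follow 6 rules. These take the 15 largest rises and falls without overlap and at 10 CPM or more, the 8 largest changes in CPM, up to 4 called members per list and direction (every member of a list of 12 or fewer), checks of target and cell line, genes with at most 3 counts in 1 group and 1 CPM or more in each library of the other, and the 5 least changed genes at 500 CPM or more. Some genes these rules name are not reported here. Outside these rules, 72 genes were chosen after their values were seen: ANO1, BNIP3, CCNB2, CD68, CD74, CDC25C, CDC6, CDKN1A, CDKN1B, CITED2, COL5A1, COL5A3, CTGF, DCN, DUSP6, EGFR, EHF, ELF3, EPHA2, FABP4, FGFR2, FOXL1, FOXO3, FOXO4, GABARAP, GATA3, GJB2, HES1, HLA-B, HOXA10, HOXA13, HOXA3, HSPA8, ID2, IFITM1, IGFBP7, IL18, INSIG1, ITGA2, ITGB8, JUN, JUNB, KRT16, LHX2, MMP14, NOV, NR4A2, PCNA, PLAU, PLIN2, POLR1A, PPL, RPA3, RPL15, S100P, SEMA3C, SERPINH1, SESN1, SOCS2, SOD2, SOX6, SPRY4, TAGLN, TEAD4, TFRC, THBD, TIMP2, TMEM173, TOP2A, TXNIP, VCAN and WNT6. Of the gene names, 12653 matched RefSeq symbols and 1586 its synonyms.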

Additional observations from a re-analysis of the deposited data

How the results depend on the processing

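In the test against a 1.5-fold change, 3849 genes were called against DMSO (2446 higher and 1403 lower), 1121 against ipatasertib and 1999 against tazemetostat. In all other settings run, the counts of called genes stayed within 1.5 times those reported. Leaving out 1 library in turn gave 9930 to 10645 called genes. DESeq2 called 10463, the fit of the 6 libraries alone 10079, and the fit without the low-count filter 10989. Scaling by total counts gave 6604 higher and 3947 lower genes. The labels do not say whether the letters A to C pair the samples. Same-letter correlations between DMSO and combination deviations were 0.059, -0.058 and -0.033, and those of unlike letters lay between -0.122 and 0.129. With 3 libraries per group these values cannot decide whether the letters mark a pairing. A fit with the replicate block called 10698 genes, 5473 higher and 5225 lower. Among single genes, FADS1 was called higher by 0.13 under total-count scaling, and GSTP1 and RPS2 by 0.11 and 0.10 without tazemetostat A and combination B. The cause was not tested. Log2 changes of genes with a few DMSO counts moved without DMSO B, NOS1 from 9.66 to 11.53. Depth limits genes under about 1 CPM, and the single cell line and 3 libraries per group limit what the p-values cover.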

Other observations

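Small nucleolar RNAs, which guide modification of ribosomal RNA and are released from introns of host genes, were not part of the gene lists. Of 258 box C/D snoRNA genes (SNORD) in the files, 65 could be tested, and 0 rose and 53 fell, with a median log2 change of -1.28. Of 106 box H/ACA genes (SNORA), 39 could be tested, and 0 rose and 28 fell, with a median of -1.09. Beside them, 36.5% of all tested genes rose and 34.5% fell. Summed over all SNORD genes, levels were 68.7 to 74.4 CPM under DMSO and 29.2 to 31.1 CPM with the combination, and 43.3 to 44.2 CPM with ipatasertib and 42.8 to 51.6 CPM with tazemetostat. SNORA sums were 46.9 to 49.1 CPM under DMSO and 24.5 to 27.9 CPM with the combination. Small Cajal body RNAs (SCARNA), a related class, went in both directions, and of 12 tested genes 2 rose and 3 fell. SCARNA sums were 9.88 to 11.7 CPM under DMSO and 9.41 to 17.2 CPM with the combination. Of 12 noncoding host genes (SNHG genes and GAS5) 5 rose and 5 fell, and other hosts were not tallied. GAS5 changed by 0.75 (SE 0.07), SNHG1 by -0.80 (SE 0.09) and SNHG12 by -1.47 (SE 0.11). The median tested SNORD gene was at 0.801 CPM under DMSO. Among the tested SNORD and SNORA genes 0 were higher at an unadjusted p under 0.05 in edgeR, and DESeq2 called 0 higher. snoRNA genes lie within their hosts, so reads of unspliced host RNA and of the snoRNA cannot be told apart in these counts.

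By RefSeq gene class, 39.2% of 273 tested long noncoding RNAs rose and 17.2% fell, with a median of 0.26, against 36.9% and 35.5% of 13507 protein-coding genes. The classes were not matched for level, and in the lowest level bin 45.9% of genes rose and 13% fell. Promoters of genes more than 2-fold higher had a median of 21 CpG dinucleotides in 300 bases, those more than 2-fold lower 24, and all tested genes 25.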
